A study of Mus musculus with 7 samples.

Results

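The 6 genes described here encode megalin, Lrp2, and 5 relatives of the low-density lipoprotein (LDL) receptor family, Lrp1, Lrp1b, Lrp4, Lrp8 and Vldlr. They were 6 of the 32285 features counted, taken by symbol. Lrp2 was put at their head because it was chosen by its measured level, which was raised in Prdm16-deficient cells that resemble neural stem cells (NSCs), so its values in that comparison describe the choice and were given no test.

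Single-cell RNA sequencing of the lateral wall of the ventricular-subventricular zone (V-SVZ), the main stem cell niche of the postnatal mouse brain, gave 7 libraries. Each library pooled tissue from 2 to 3 mice of both sexes aged 31 to 33 days. The 3 control libraries came from mice labelled Prdmflox/flox, floxed at Prdm16 by the study's methods, which carry no Cre. The 3 cKO libraries came from hGFAP-Cre+/-; Prdm16flox/flox mice, in which a human GFAP promoter drives Cre in radial glia and their descendants and so deletes Prdm16, a transcriptional regulator. The DKO library came from hGFAP-Cre+/-; Prdm16flox/flox; Vcam1flox/flox mice and was a single library, so its values stand without a test. All 7 libraries therefore carried the floxed Prdm16 allele, no group carried Cre alone, and no group carried floxed Vcam1 alone. With animals pooled, p-values measure the spread between libraries and not between mice.

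Receptors of this family bind ligands at the cell surface and carry them into endosomes. Megalin is the large scavenger receptor of absorptive epithelia and also lines ventricular surfaces, where it takes up carrier proteins and influences morphogen signals in the developing forebrain. Lrp1 clears lipoproteins and protease complexes, Lrp1b is its close relative, Lrp4 is best known as the agrin co-receptor at the neuromuscular junction, and Lrp8 (also called ApoER2) and Vldlr are the reelin receptors that signal through the adaptor Dab1.

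In the mm10 (GRCm38) annotation, Lrp2 (ENSMUSG00000027070) spans chr2:69424340-69586065 on the minus strand and its longest coding transcript has 79 exons. Lrp1b (ENSMUSG00000049252) lies on the same chromosome at chr2:40595246-42653624, also on the minus strand. It is the longest of the 6 genes, at 2058 kb, and 3 annotated genes overlap it on the same strand. Lrp4 (ENSMUSG00000027253) is at chr2:91457511-91513779 on the plus strand. Lrp1 (ENSMUSG00000040249) is at chr10:127538161-127621148 on the minus strand, Lrp8 (ENSMUSG00000028613) at chr4:107802261-107876840 on the plus strand and Vldlr (ENSMUSG00000024924) at chr19:27216484-27254231 on the plus strand. Genes are also annotated on the opposite strand of Lrp1 (Gm16217), Lrp1b (Gm13460, Gm13462 and Gm13463) and Lrp8 (Lrp8os1 and Lrp8os2). The 3′ libraries mark the strand and Cell Ranger, the counting software, by default counts sense reads, so the genes on the same strand as Lrp1b are the overlaps that could share its reads. The setting used is not given in the sources used here.

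The libraries held 45758003 to 141353017 unique molecular identifiers (UMIs), and 43346 cells with 500 to 7000 detected genes and at most 10% mitochondrial counts were kept, 1868 to 9502 per library. Clustering placed 38025 of them in 11 types, each called by its markers: NSC-like, astrocyte-like, ependymal-like, transit amplifying precursor (TAP)-like, neuroblast-like, neuron-like, oligodendrocyte precursor (OPC)-like, oligodendrocyte-like, microglia-like, endothelial-like and mural-like cells. Of the 8 NSC markers, 7 were raised in the NSC-like cluster, and all 8 ependymal markers were raised in the ependymal-like cluster. The NSC-like cluster also raised astrocyte markers, in a larger share than NSC markers. It took its name from Thbs4 and Gfap, which stood among its 10 leading genes. In the astrocyte-like cluster all 8 astrocyte markers were raised, although none stood among its 10 leading genes. A fibroblast-like, a T cell-like and 2 unnamed clusters were left out of the comparisons made with these clusters. Prdm16 in NSC-like cells stood at 62.7 to 74.0 CPM (UMIs of the gene in each 1000000 UMIs of that type and library) in the controls and at 46.4 to 54.7 CPM in the cKO libraries, and 3′ reads outside the deleted exon can persist after deletion. The cKO 2 and cKO 3 libraries stood apart: 49.8% and 47.2% of their barcodes were kept, against 70.2 to 74.7% elsewhere. In their NSC-like cells Thbs4, an NSC marker, stood at 43.6 and 23.0 CPM, against 395 CPM in cKO 1 and 327 to 652 CPM in the controls. Of the kept cells, 731 shared a barcode with a kept cell of another library.

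The 6 receptors had separate distributions over the niche. The levels below are CPM of the summed UMIs of a type in a library, as the mean ± SD over the 3 control libraries, and because the types were made by clustering the same cells they are descriptions with no test. Counts of different genes depend on the sequence at each 3′ end, so levels were compared between cell types within a gene and not between genes.

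Lrp2 was an ependymal gene in these cells. It stood at 67.3 ± 28.3 CPM in control ependymal-like cells, and the next type, NSC-like cells, had 1.11 ± 0.221 CPM, a ratio of 60.6. The ranges of those types did not overlap. Ependymal-like cells held 887 of the 986 Lrp2 UMIs of the control libraries, or 90.0%, and NSC-like cells held 26 of them, or 2.64%. From OPC-like cells, at 0.608 CPM, down to neuron-like cells, at 0.185 CPM, each type overlapped its neighbour in the order. No Lrp2 UMI was found in 582 control microglia-like cells, which allows a share of up to 0.515% of cells with a UMI at their depth (median 4494.5 UMIs) and sets no limit on cells with the transcript.

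Among the 11 types Lrp1 was highest in microglia-like (316 ± 25.1 CPM), mural-like (285 ± 31 CPM) and OPC-like cells (269 ± 11.6 CPM). Their ranges overlapped from one to the next. Astrocyte-like cells (190 ± 9.18 CPM), NSC-like cells (163 ± 10.3 CPM) and neuron-like cells (102 ± 4.76 CPM) followed with no overlap between neighbours. The fibroblast-like cluster, left out of this order, had Lrp1 at 308, 439 and 391 CPM in controls 1, 2 and 3. The lowest type was oligodendrocyte-like cells, at 6.55 ± 0.502 CPM, below endothelial-like cells at 22.2 CPM with no overlap. Lrp1b, in contrast, was high in oligodendrocyte-like cells. It stood at 269 ± 7.53 CPM in neuron-like, 181 ± 13.1 CPM in OPC-like and 167 ± 25.1 CPM in oligodendrocyte-like cells, of which the last 2 overlapped, and at 21.1 CPM in astrocyte-like cells, the next type, and 1.88 CPM in TAP-like cells, the lowest.

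Lrp4 marked the astroglial types. Its level was 92.0 ± 27.1 CPM in NSC-like and 78.5 ± 4.38 CPM in astrocyte-like cells, which overlapped, then 35.6 ± 10.7 CPM in OPC-like cells, and no other type exceeded 9.84 CPM. NSC-like cells held 47.4% of the control Lrp4 UMIs.

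The reelin receptors differed in where they stood. Lrp8 was highest in neuroblast-like (244 ± 60.8 CPM) and endothelial-like cells (242 ± 61.8 CPM), followed by TAP-like (135 ± 33.9 CPM) and NSC-like cells (104 ± 19.1 CPM). Its ranges overlapped between all neighbours from TAP-like cells down to neuron-like cells (59.5 CPM). Vldlr was highest in oligodendrocyte-like (215 ± 6.59 CPM) and OPC-like cells (204 ± 9.74 CPM), which overlapped, and then in neuron-like (127 ± 21.0 CPM), ependymal-like (77.0 ± 13.2 CPM) and neuroblast-like cells (40.1 ± 0.744 CPM), each apart from the next. It was lowest in NSC-like cells, at 4.64 CPM.

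**Figure D1:**
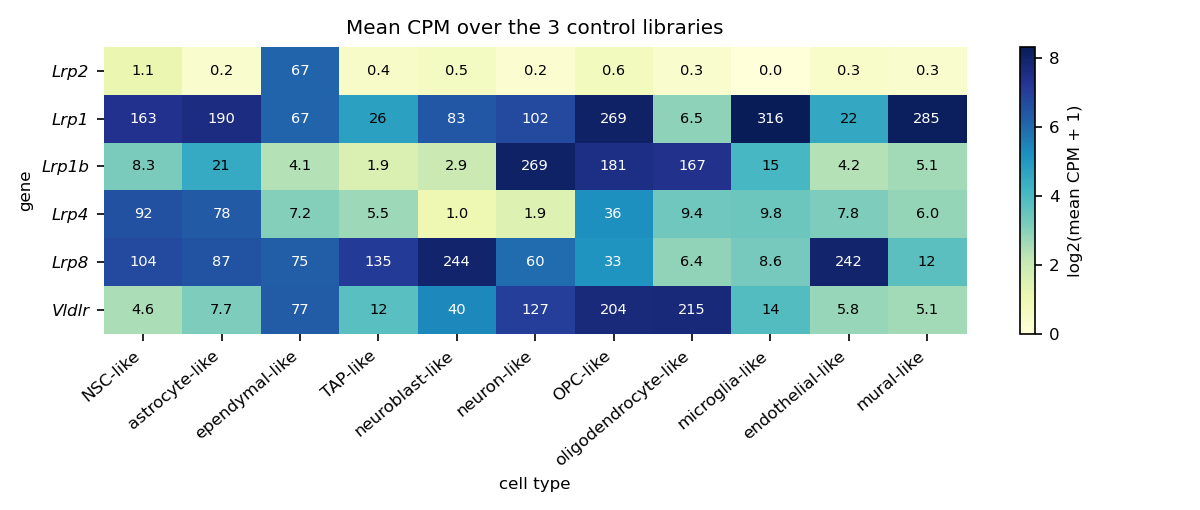
Mean CPM of each receptor (rows) in each of the 11 cell types (columns) over the 3 control libraries, with the colour on a log2(mean CPM + 1) scale. The Lrp2 row is dark in ependymal-like cells alone, at 67 CPM, while Lrp1, Lrp8 and Vldlr each reach high levels in several types.

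The genes whose log2(CPM + 1) across the 11 types was most like that of each receptor were taken from 14085 genes by Pearson's r, over control means. For Lrp2 these were Cfap221 (r = 0.995), Olfr1507, Vwa3b, Ush1g and Cfap157 (r = 0.994 each), all highest in ependymal-like cells. Lrp4 was most like Pomt2 (r = 0.954), and the 5 closest genes included Hes5, a Notch target and one of the NSC markers (r = 0.918). Lrp1b was most like Rab3gap2 (r = 0.958) and Vldlr most like Prkcz (r = 0.962). The closest genes to Lrp1 and Lrp8 were less alike, Pid1 (r = 0.919) and Palm (r = 0.873). Among the receptors themselves the closest pair was Lrp1b and Vldlr (r = 0.702), and the other pairs lay between r = -0.437 and r = 0.315. The 11 points of each correlation share the same libraries and are a description.

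The first comparison asked how the receptors stood in Prdm16-deficient NSC-like cells. Lrp2 stood at 1.28, 0.861 and 1.19 CPM in the controls, at 5.39, 14.8 and 14.8 CPM in cKO 1, 2 and 3, while the DKO library had 3.74 CPM. Every cKO library was above every control library, with cKO 2 and cKO 3 close to each other and cKO 1 nearer to the controls. The group means were 1.11 ± 0.221 and 11.6 ± 5.42 CPM (SD, n = 3), a ratio of 10.5, and the fitted log2 fold change was 3.42 ± 0.458 (SE), a description because this contrast chose the gene. Behind these levels stood 9, 4 and 13 Lrp2 UMIs in the controls and 32, 41 and 117 in the cKO libraries. In this comparison 0.2% of 14522 genes were called at an adjusted p under 0.05 (edgeR), and 17.2% had groups that did not overlap, which held for Lrp2 and Lrp8 of the 6 receptors.

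Lrp2 was detected in few NSC-like cells at this depth. A Lrp2 UMI was found in 25 of 2893 control cells, or 0.864%, and in 128 of 1776 cKO cells, or 7.21%. The share was 3.00% in cKO 1 (95% exact binomial interval 1.98 to 4.33%), 11.5% in cKO 2 (7.50 to 16.6%), 11.6% in cKO 3 (9.23 to 14.2%) and 3.02% in the DKO library (1.98 to 4.39%). These intervals cover counting error only. In other control types with little Lrp2 the share was 0.690% in TAP-like and 0.647% in oligodendrocyte-like cells, whose median UMIs per cell were 17078 and 18362 against 6804 in NSC-like cells, and 0.179% in astrocyte-like, 0.197% in mural-like and 0% in microglia-like cells. In the cKO libraries TAP-like and oligodendrocyte-like cells stood at 0.980% and 1.01%, and microglia-like cells at 1.90% (7 of 369 cells), all below the cKO NSC-like share. With every cell thinned to 2000 UMIs, leaving out 82 control and 17 cKO cells, the NSC-like shares were 0.285% and 1.88%. The thinned control shares were 0.077% in TAP-like and 0.127% in oligodendrocyte-like cells, below that of NSC-like cells. The highest count in a single NSC-like cell was 2 UMIs in the controls and 5 in the cKO libraries.

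**Figure D2:**
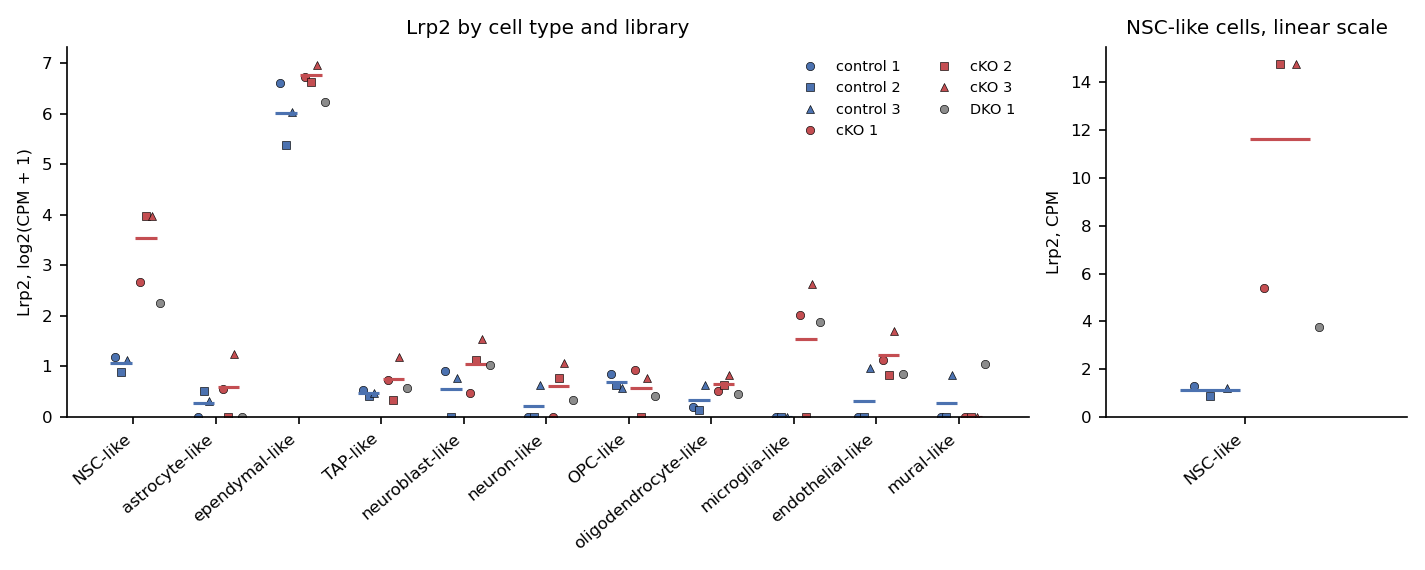
Left, Lrp2 as log2(CPM + 1) in each cell type, 1 point per library, with bars at the group means of the 3 control (blue) and 3 cKO (red) libraries and the DKO library in grey. Right, the NSC-like points on a linear CPM scale, where cKO 2 and cKO 3 sit at 14.8 CPM, cKO 1 at 5.39 CPM and the controls at 0.861 to 1.28 CPM.

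Most Lrp2 UMIs of cKO NSC-like cells lay in cells that also carried ependymal transcripts, as did most of those in controls 1 and 3 and the DKO library. NSC-like cells with 2 or more of the 8 ependymal markers (Ccdc153, Foxj1, Tmem212, Rsph1, Dynlrb2, Pifo, Mia and Enkur) made up 16.1, 35.6 and 38.7% of the control cells, 23.9, 61.7 and 56.8% of the cKO cells and 39.5% of the DKO cells. They held 19 of 32, 39 of 41 and 109 of 117 Lrp2 UMIs in cKO 1, 2 and 3, or 59.4, 95.1 and 93.2%, with 35.8, 69.5 and 68.9% of all UMIs. In the controls they held 5 of 9, 1 of 4 and 9 of 13, with 23.1, 42.4 and 44.5% of all UMIs, and in the DKO library 30 of 35, with 46.5%. Their Lrp2 level was 3.07, 0.508 and 1.86 CPM in the controls, 8.92, 20.2 and 20.0 CPM in the cKO libraries and 6.90 CPM in the DKO library. In the remaining NSC-like cells it was 0.740, 1.12 and 0.662 CPM in the controls, 3.41, 2.36 and 3.25 CPM in the cKO libraries and 1.00 CPM in the DKO library. The cKO values lay above the control values in both subsets. Those of the remaining cells rested on 4, 3 and 4 Lrp2 UMIs in the controls and on 13, 2 and 8 in the cKO libraries, and their fitted difference was 2.03 on the log2 scale.

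The sum of the 8 ependymal markers was higher in cKO 2 and cKO 3, and in cKO 1 it lay within the controls. All 8 were detected in the NSC-like cells of every library, and their summed level was 151, 175 and 223 CPM in the controls, 212, 374 and 364 CPM in the cKO libraries and 240 CPM in the DKO library. Ependymal-like cells had 6982 to 9161 CPM of the same markers. Foxj1 alone, in NSC-like cells, stood at 19.9, 22.6 and 21.2 CPM in the controls and 31.1, 98.3 and 60.4 CPM in the cKO libraries. For this marker cKO 1 also lay above the controls. As a percentage of the ependymal-like level of the same library, Lrp2 in NSC-like cells stood at 1.32, 2.12 and 1.85% in the controls and at 5.11, 15.2 and 11.9% in the cKO libraries, while the markers stood at 2.06, 1.91 and 2.56% and at 2.61, 4.85 and 5.22%. On this scale the markers of cKO 1 lay just above those of the controls. Lrp2 thus stood at 0.64 to 1.11 times the percentage of the markers in the controls and at 1.96 to 3.13 times it in the cKO libraries. The part of ependymal RNA in the Lrp2 difference was not tested.

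**Figure D3:**
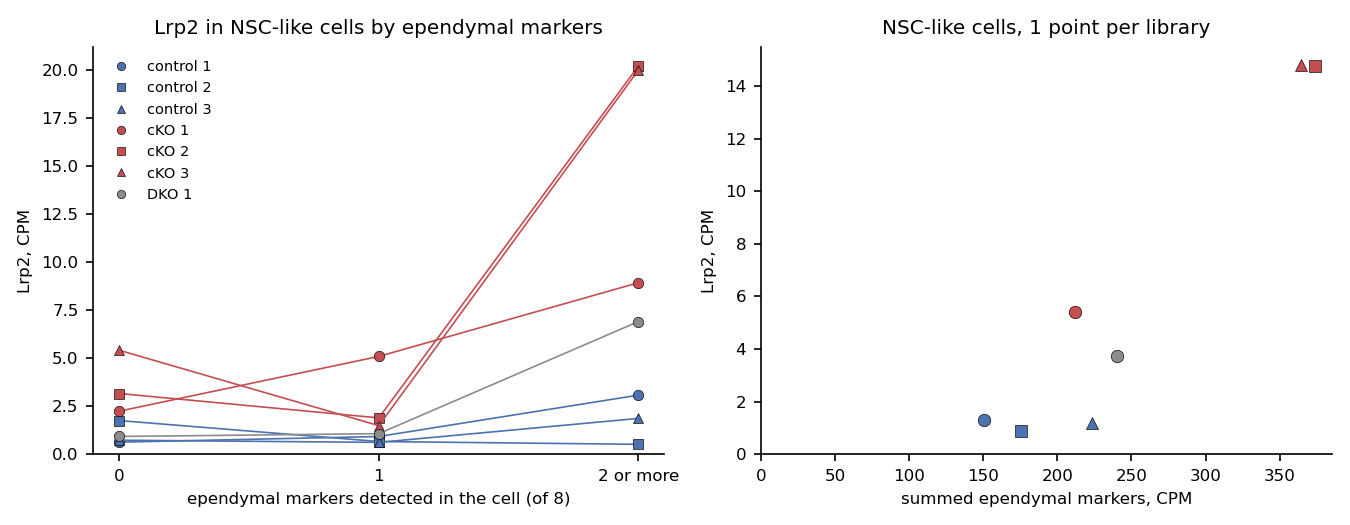
Left, Lrp2 in CPM in NSC-like cells in which 0, 1 or 2 or more of the 8 ependymal markers were detected, 1 line per library. Right, Lrp2 in CPM against the summed CPM of the 8 markers, 1 point per library. In cKO 2 and cKO 3 Lrp2 is at 20.2 and 20.0 CPM in cells with 2 or more markers, and these libraries also have the highest marker sums.

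The Lrp2-positive NSC-like cells of the cKO libraries differed from the negative cells of the same library in other genes. Their ependymal marker sum was 477, 614 and 613 CPM against 196, 338 and 317 CPM in negative cells. Gfap, the glial filament that marks NSCs and astrocytes, stood at 727, 962 and 1572 CPM against 338, 900 and 910 CPM. Thbs4, another NSC marker, went the other way, at 186, 19.3 and 12.6 CPM against 408, 47.2 and 25.0 CPM. The 9, 3 and 13 Lrp2-positive cells of the controls differed in another way, with Gfap at 121, 161 and 153 CPM against 391, 431 and 268 CPM in negative cells, and Thbs4 at 673, 188 and 561 CPM against 455, 655 and 324 CPM. Their ependymal marker sum was 294, 108 and 248 CPM against 150, 176 and 223 CPM. In the DKO library the positive cells had 513 against 228 CPM of these markers, with Gfap at 690 against 402 CPM and Thbs4 at 55.9 against 237 CPM. Positive cells of the cKO libraries were also deeper, with median UMIs of 10745, 14802 and 14455 against 5224, 11296 and 9991. In the controls the medians were 3961, 12532 and 8226 against 5360.5, 9471 and 7263, with the positive cells of control 1 shallower. Epithelial cells of the choroid plexus are a rich source of Lrp2, and their 6 markers (Ttr, Kl, Folr1, Kcnj13, Clic6 and Otx2) summed to 13.1 to 29.7 CPM in control and 13.3 to 22.0 CPM in cKO NSC-like cells, with Kl at 0 in 5 of the 7 libraries. Prm1, the protamine 1 gene, was found in 1 of the 2893 control NSC-like cells and in 238 of 901, 152 of 209 and 507 of 666 of those of cKO 1, 2 and 3. Lrp2 stood at 10.2, 13.9 and 16.1 CPM in these and at 2.65, 18.7 and 7.87 CPM in the other cells, so it was higher in the Prm1-bearing cells of cKO 1 and cKO 3 and not of cKO 2. The values of the Prm1-bearing cells rested on 22, 32 and 107 Lrp2 UMIs and those of the other cells on 10, 9 and 10. In the DKO library Lrp2 stood at 6.23 CPM in the Prm1-bearing and 1.60 CPM in the other NSC-like cells. Prm1 was found in NSC-like cells almost only in libraries with Cre, and the source of its reads was not tested.

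The cell naming decided where the Lrp2 difference appeared. When the 7 libraries were clustered without integration, only 17 and 18 cells of cKO 2 and cKO 3 were NSC-like, with no Lrp2 UMI. The difference then stood in the astrocyte-like cluster, at 0, 0 and 1.23 CPM in the controls, 10.8, 11.8 and 12.5 CPM in the cKO libraries and 9.16 CPM in the DKO library. That cluster held 419, 213 and 487 control cells and 378, 449 and 1830 cKO cells, with a median of 2116 UMIs. In control 3, 1 UMI made 1.23 CPM there, against 0.246 CPM in its 484 astrocyte-like cells of the main clusters. The control 3 cells there were thus shallower, and the name covered unlike cells in different libraries. With cells named by counts of detected markers, NSC-like cells had 2.13, 0.720 and 0.896 CPM in the controls and 2.03, 8.61 and 7.37 CPM in the cKO libraries, which overlapped, and astrocyte-like cells had 0.490, 0.615 and 0.596 CPM against 4.76, 10.4 and 12.3 CPM. Over NSC-like and astrocyte-like cells together, which does not depend on the border between them, Lrp2 stood at 0.959, 0.720 and 0.936 CPM in the controls, 4.06, 10.6 and 11.2 CPM in the cKO libraries and 2.80 CPM in the DKO library. Cell Ranger differed in version between libraries. For version 6.0.1 the mean of 2 cKO libraries was 10.1 CPM and that of 2 control libraries 1.07 CPM, and for version 6.1.1 there was 1 library of each group, cKO 3 at 14.8 CPM and control 3 at 1.19 CPM.

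Lrp8 was the other receptor whose libraries separated in NSC-like cells, in the opposite direction. It stood at 125, 95.4 and 90.2 CPM in the controls, 81.5, 53.6 and 48.8 CPM in the cKO libraries and 72.3 CPM in the DKO library, a fitted log2 fold change of -0.66 ± 0.189 (SE). All cKO libraries lay below all controls, with cKO 1 the nearest. For the other 4 receptors the groups overlapped in NSC-like cells, with log2 fold changes of 0.15 for Lrp1, 0.32 for Lrp1b, -0.19 for Lrp4 and 0.16 for Vldlr.

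The remaining comparisons asked whether the receptors differed between cKO and control libraries in the 10 other cell types. The stated reason for choosing Lrp2 lies outside these types, but the genes were chosen with earlier results of these data known. Of 60 receptor and cell type pairs, 50 passed the filter on low counts and were tested with edgeR's quasi-likelihood test, adjusted by Benjamini-Hochberg over all genes of a type. None was called at an adjusted p under 0.05, where 0.151% of the 125379 gene and type pairs were called, and DESeq2 called none either. At an unadjusted p under 0.05 there were 5 pairs, or 10%, where the background was 5.36%. Groups of libraries did not overlap for 9 pairs, or 18%, where the background was 10.5%. The fitted log2 fold change was above 0 in 24 pairs and below 0 in 26.

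**Figure D4:**
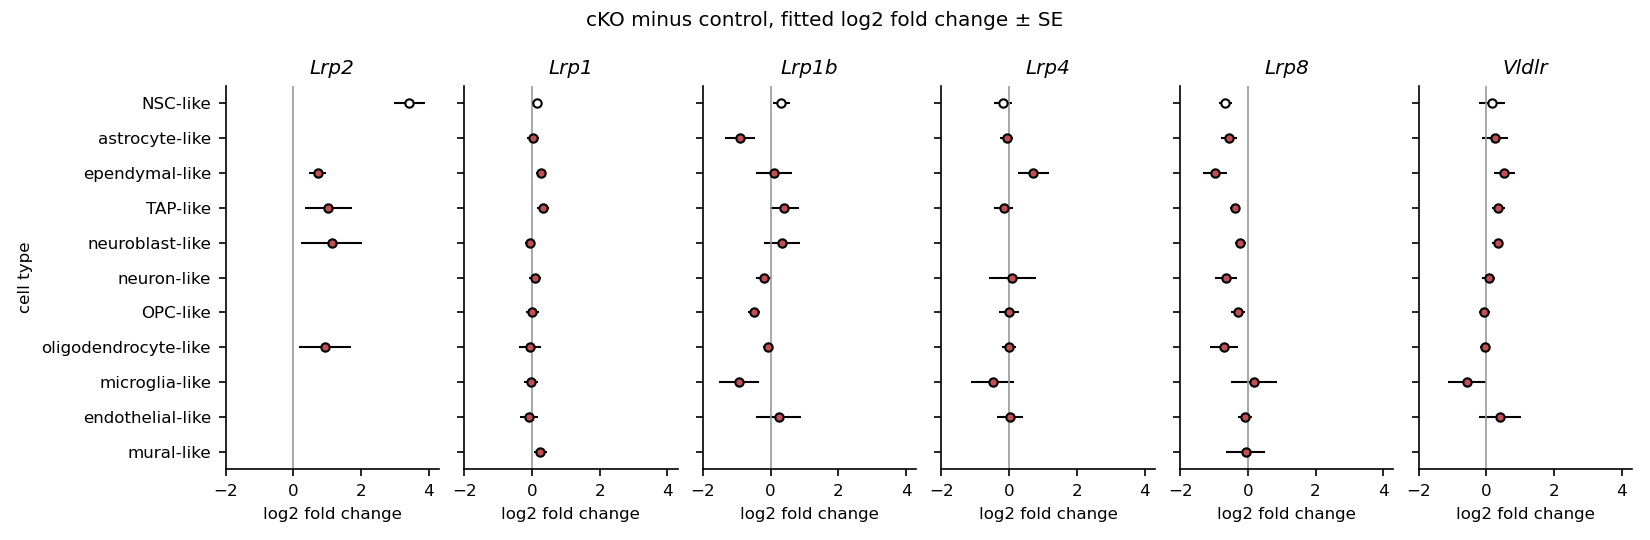
Fitted log2 fold change, cKO minus control, ± SE for each receptor in each cell type where it was tested, on 1 common axis. Open points are NSC-like cells, where the comparison chose the genes and is a description. Lrp2 in NSC-like cells stands at 3.42, and Lrp8 lies left of 0 in 9 of the 10 other types.

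Lrp2 was also higher in cKO ependymal-like cells, short of the threshold. The controls stood at 96.9, 40.6 and 64.5 CPM, the cKO libraries at 105, 97.2 and 125 CPM and the DKO library at 73.8 CPM. The groups did not overlap, though control 1 lay close to cKO 2 and the DKO library lay among the controls. The log2 fold change was 0.72 ± 0.245 (SE), with an unadjusted p of 0.0153 and an adjusted p of 0.391 (edgeR). In this type 0.151% of 13890 genes were called, 8.57% had an unadjusted p under 0.05 and 12.8% had groups that did not overlap. Without the filter on low counts the same difference of 0.71 had an adjusted p of 0.00438 (edgeR), and over all alternatives the adjusted p ranged from 0.00438 to 0.843. Without the filter 375 of 21318 genes were called in this type.

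The share of ependymal-like cells with a Lrp2 UMI was 26.9% in the controls and 39.7% in the cKO libraries. Median UMIs per cell were 2282 and 5013.5, and after thinning to 2000 UMIs, which left out 741 and 324 cells, the shares were 10.8% and 15.8%. Choroid plexus markers in this cluster summed to 2517, 2443 and 545 CPM in the controls, 691, 176 and 158 CPM in the cKO libraries and 3079 CPM in the DKO library. Ttr alone stood at 2253, 2194 and 329 CPM in the controls and at 469, 0.582 and 0 CPM in the cKO libraries. Without Ttr the sums were 265, 249 and 216 CPM in the controls and 221, 176 and 158 CPM in the cKO libraries, and the groups overlapped both with and without it. Their part in the Lrp2 values was not tested. In Prm1-bearing and other ependymal-like cells Lrp2 stood at 104 and 106 CPM in cKO 1, 97.1 and 97.3 CPM in cKO 2, 120 and 129 CPM in cKO 3 and 87.9 and 63.6 CPM in the DKO library.

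In the other types Lrp2 stayed at 5.19 CPM or less in every library. The highest of these values were in microglia-like cells of cKO 1 and cKO 3, at 3.05 and 5.19 CPM from 2 and 5 UMIs, where cKO 2 and all controls had none. It was not tested there, nor in astrocyte-like, neuron-like, OPC-like, endothelial-like and mural-like cells, because it did not pass the filter. In TAP-like, neuroblast-like and oligodendrocyte-like cells it passed at levels of at most 1.93 CPM, and the groups overlapped, with adjusted p-values of 0.802, 0.711 and 1 (edgeR).

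Lrp8 was lower in cKO libraries in 9 of the 10 types, all by amounts that missed the threshold, with log2 fold changes from -0.97 to 0.19 and a median of -0.33, where the median over all genes of a type lay between -0.004 and 0.017. The types were cut from the same libraries and do not count as separate evidence. Ependymal-like cells had the largest difference. There Lrp8 stood at 84.2, 75.0 and 67.3 CPM in the controls, 63.1, 27.4 and 20.4 CPM in the cKO libraries and 33.0 CPM in the DKO library. Every cKO library was below every control, with cKO 1 just below control 3. The log2 fold change was -0.97 ± 0.351 (SE), with an unadjusted p of 0.0264 and an adjusted p of 0.468 (edgeR). Without cKO 1 it was -1.60, with an adjusted p of 0.000883 (edgeR), while without cKO 2 or cKO 3 it was -0.84 and -0.66 with adjusted p-values of 0.901 and 0.773. Of all genes tested in ependymal-like cells, 386 of 13479 were called without cKO 1.

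In astrocyte-like cells Lrp8 stood at 127, 77.2 and 58.3 CPM in the controls and 60.7, 67.9 and 47.3 CPM in the cKO libraries, which overlapped (log2 fold change -0.56, edgeR adjusted p = 0.391). In TAP-like cells the values were 171, 130 and 104 CPM and 112, 96.1 and 87.1 CPM, also overlapping (-0.37, edgeR adjusted p = 0.657). Control 1 was the highest control in both types, as it was in all 11. In neuroblast-like and endothelial-like cells, where Lrp8 was most abundant, control 1 stood at 315 and 311 CPM, and the other libraries at 193 to 213 CPM and 154 to 252 CPM. In OPC-like cells the libraries did not overlap, at 35.4, 31 and 32.9 CPM against 26.3, 18.7 and 28.8 CPM (-0.28, edgeR adjusted p = 0.955). The same held for 12.1% of all genes in this type. Without control 1, Lrp8 was lower in 7 and higher in 2 of 9 types tested, with differences of -0.25 in astrocyte-like, -0.05 in neuroblast-like and 0.10 in endothelial-like cells.

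Lrp1b stood lower in OPC-like cells and in neuron-like cells, among its main types, with libraries that did not overlap and with no call. In OPC-like cells it stood at 193, 182 and 167 CPM in the controls, 127, 95.4 and 133 CPM in the cKO libraries and 222 CPM in the DKO library, which lay above all the others. The log2 fold change was -0.49 ± 0.169 (SE), with an unadjusted p of 0.00902 and an adjusted p of 0.955 (edgeR). In this type 4.49% of genes had an unadjusted p under 0.05. In neuron-like cells the values were 260, 275 and 271 CPM against 237, 199 and 241 CPM (-0.21, edgeR adjusted p = 1). In microglia-like cells its libraries also separated, at 20.1, 14.5 and 11.4 CPM against 9.14, 0 and 9.35 CPM (-0.93, edgeR adjusted p = 0.999). These values rested on 21, 7 and 15 UMIs against 6, 0 and 9. Groups did not overlap for 12.1% of all genes in OPC-like, 7.81% in neuron-like and 9.64% in microglia-like cells. Oligodendrocyte-like cells held 53.5% of the control Lrp1b UMIs, and there the groups overlapped. They stood at 196, 157 and 149 CPM against 167, 128 and 156 CPM.

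In astrocyte-like cells, where 1.29% of 12082 genes were called, Lrp1b stood at 21.2, 23.9 and 18.2 CPM in the controls and at 20.1, 2.75 and 7.83 CPM in the cKO libraries. Here cKO 1 lay among the controls and cKO 2 and cKO 3 below them. The log2 fold change was -0.90 ± 0.449 (SE, edgeR adjusted p = 0.563). Without cKO 1 it was -1.74 (edgeR adjusted p = 0.00357), without cKO 2 or cKO 3 it was -0.59 and -0.65 (edgeR adjusted p = 0.807 and 0.942), and with clusters made without integration it was -1.47 (edgeR adjusted p = 0.009), so the call rested on which library and which cells were used. Of all genes in this type, 528 of 12246 were called without cKO 1 and 1125 of 13537 without integration. The astrocyte-like cluster made without integration held unlike cells in different libraries, as described for Lrp2.

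**Figure D5:**
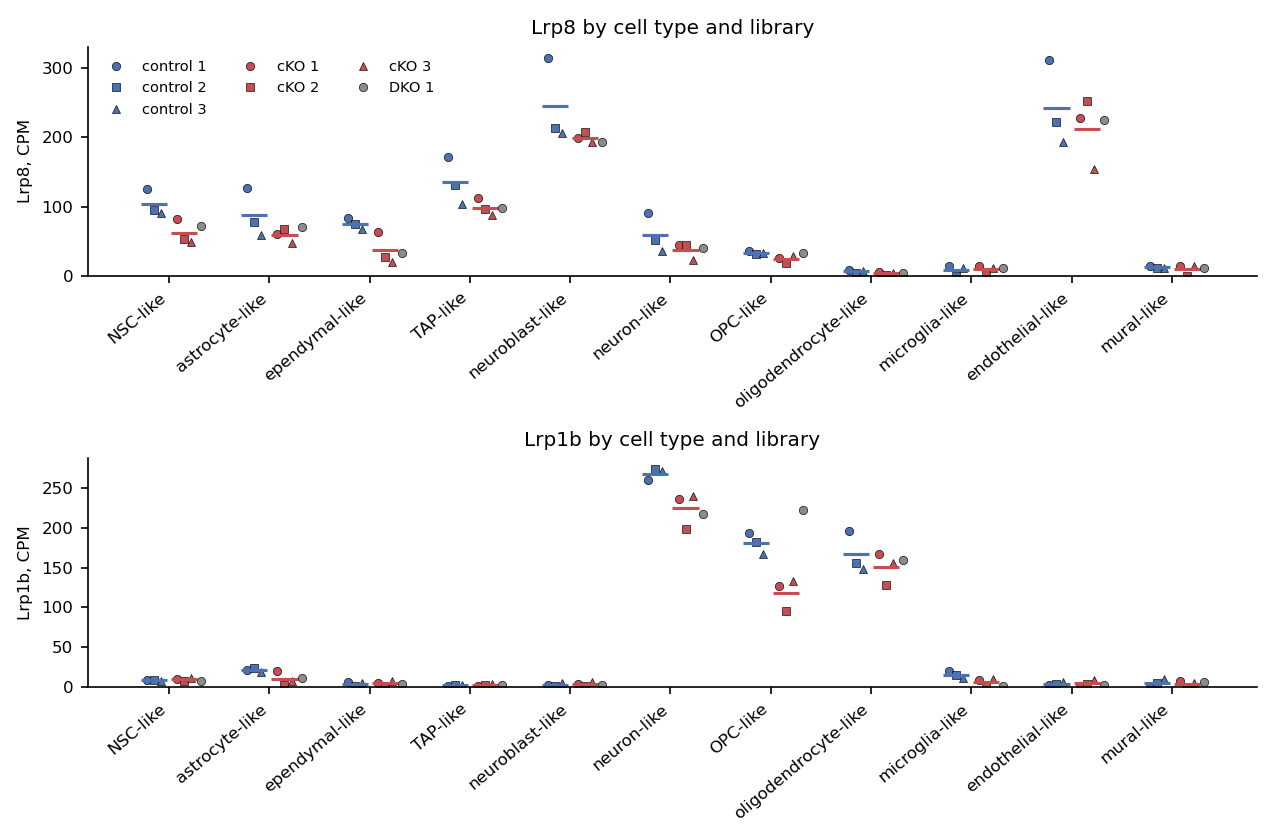
Lrp8 (top) and Lrp1b (bottom) in CPM in each cell type, 1 point per library, with bars at the means of the 3 control (blue) and 3 cKO (red) libraries and the DKO library in grey. Control 1 is the highest Lrp8 control in every type, and the OPC-like Lrp1b points of the cKO libraries, at 95.4 to 133 CPM, lie below the controls, at 167 to 193 CPM.

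Vldlr separated in 2 of the 9 types tested, in opposite directions. Groups did not overlap for 12.9% of all genes in neuroblast-like and 12.1% in OPC-like cells. In neuroblast-like cells Vldlr stood at 40.2, 40.8 and 39.3 CPM in the controls, 43.8, 47.0 and 53.9 CPM in the cKO libraries and 37.9 CPM in the DKO library (log2 fold change 0.33, edgeR adjusted p = 0.577). In OPC-like cells it stood at 211, 208 and 192 CPM in the controls and at 179, 181 and 176 CPM in the cKO libraries (-0.07, edgeR adjusted p = 0.995). Overlap was read from CPM, without the TMM scaling that edgeR applies to the fitted difference. In ependymal-like cells cKO 3, at 154 CPM, lay far above the rest, which spanned 63.5 to 97.3 CPM.

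Lrp1 showed small differences in the types tested, from -0.09 to 0.33 on the log2 scale, with a lowest adjusted p of 0.718 (edgeR). Its libraries separated only in TAP-like cells, where those of 11.2% of all genes did. They stood at 23.0, 27.9 and 27.5 CPM in the controls and 28.1, 29.6 and 36.5 CPM in the cKO libraries. Lrp4 ranged from -0.49 to 0.72 in 8 types, with no type in which its libraries separated. Its widest difference was in ependymal-like cells, at 8.31, 2.08 and 11.3 CPM in the controls and 7.49, 19.8 and 15.3 CPM in the cKO libraries (0.72 ± 0.462, edgeR adjusted p = 0.766). It was 0.46 without cKO 2 and 1.22 without control 3.

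The partners of these receptors were counted by role in the 10 types outside NSC-like cells. No pair was called among the 92 tested pairs of 10 other LDL receptor family and LDLa-domain receptors, the 135 pairs of 17 co-receptors, chaperones and endocytic adaptors, the 117 pairs of 12 reelin signal transducers or the 99 pairs of 10 receptor proteases. At an unadjusted p under 0.05 these lists held 6.52, 4.44, 3.42 and 1.01% of their pairs, where the background over all gene and type pairs was 5.36%, with 0.151% called. Among the 26 ligands, 2 of 156 pairs were called, both higher, and 17.3% had an unadjusted p under 0.05, against the same background of 5.36%. Of these 27 pairs, 7 lay in ependymal-like, 5 in astrocyte-like and 4 in TAP-like cells, where the background was 8.57, 10 and 6.93%. Serpine2, A2m, Plat and Clu passed in several types, which share libraries and do not count as separate evidence. The types of the 2 called pairs had 0.151% (ependymal-like) and 1.29% (astrocyte-like) of all genes called. Both stood under 10 CPM in the controls and are named here after their values were seen. Reln, the ligand of Lrp8 and Vldlr, rose in ependymal-like cells from 4.43, 1.04 and 3.37 CPM to 12.7, 16.9 and 19.9 CPM, with 4.82 CPM in the DKO library (log2 fold change 2.31 ± 0.348, edgeR adjusted p = 0.0277). A2m, a protease inhibitor cleared by Lrp1, rose in astrocyte-like cells from 4.68, 3.04 and 1.48 CPM to 7.76, 16.5 and 16.3 CPM, with 26.8 CPM in the DKO library (2.22 ± 0.407, edgeR adjusted p = 0.00893). With 1 library left out, 0 to 10 partner pairs were called, and without control 2, cKO 2 or cKO 3 none was. With cells of at most 5% mitochondrial counts none was called either.

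Dab1, the adaptor of Lrp8 and Vldlr, was lower in ependymal-like cells, at 35.2, 39.6 and 40.4 CPM in the controls and 27.6, 16.9 and 18.7 CPM in the cKO libraries, with no overlap (log2 fold change -0.79 ± 0.193, edgeR adjusted p = 0.159). Myo6, a motor that moves endocytic vesicles, was higher there, at 98.8, 77.1 and 87.6 CPM against 125, 116 and 137 CPM (0.57 ± 0.15, edgeR adjusted p = 0.195). Neither passed the threshold. They were among 3 of 13 tested co-receptors, chaperones and adaptors with an unadjusted p under 0.05 (edgeR) in this type. Over all genes 8.57% had such a p-value there and 12.8% had groups that did not overlap. Of the 13 genes 8 were higher and 5 lower, with a median log2 fold change of 0.06.

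In NSC-like cells the partner genes belong to the contrast that chose Lrp2 and are described without a test. Of the 10 other family receptors listed, 4 were higher and 6 lower in the cKO libraries there, with a median log2 fold change of -0.066. Only Sorl1 of these is shown, named with its values known. Sorl1, a sorting receptor of the same family, stood at 70.9, 64.8 and 71.9 CPM in the controls, 101, 232 and 245 CPM in the cKO libraries and 86.2 CPM in the DKO library, with cKO 2 and cKO 3 the highest as for Lrp2. Dab1 ran the other way, at 127, 123 and 135 CPM in the controls, 104, 47.2 and 48.3 CPM in the cKO libraries and 122 CPM in the DKO library. Rbp4, the retinol carrier that megalin takes up, stood at 4.83, 5.6 and 5.05 CPM in the controls, 20.0, 9.0 and 20.6 CPM in the cKO libraries and 0.321 CPM in the DKO library. Cubn and Amn, which form the cubilin complex that works with megalin in the kidney, stayed under 1 CPM in every NSC-like sum. Lrpap1, the chaperone that escorts these receptors to the surface, lay at 165 to 176 CPM in the controls and 137 to 178 CPM in the cKO libraries, which overlapped.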

How the data were processed

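The authors dissociated V-SVZ tissue, made 10x Genomics 3′ v3.1 libraries and counted UMIs per gene and barcode against GRCm38 with Cell Ranger (6.0.1 for control 1 and 2 and cKO 1 and 2, and 6.1.1 for control 3, cKO 3 and the DKO library, per the file headers). The deposited matrices hold raw counts of filtered barcodes, 3753 to 13594 per library. Here cells with 500 to 7000 genes and at most 10% mitochondrial counts were kept, integrated and clustered with Seurat 5.3.0 (2000 variable features, 30 components, resolution 0.15), and clusters were named from marker lists. Scrublet marked 1043 cells (2.41%), with no automatic threshold in 1 library. These cells stayed in and were left out in an alternative. Replicate libraries differed beyond sampling noise, with a chi-square per degree of freedom of 58.2 to 214.5.

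Counts were summed per library and type (at least 10 cells, with 47 the fewest) and fitted with edgeR 4.0.16 (TMM, filterByExpr, robust quasi-likelihood, 7 libraries and 3 groups per fit, Benjamini-Hochberg over all genes of a type, threshold 0.05). The scripts were tested on simulated data. The fits were repeated with DESeq2 1.42.0, with all genes kept whatever their counts, with a block for replicate number, leaving out every library in turn, and without the DKO library, and further alternatives were at most 5% mitochondrial counts, doublets left out, marker gates, no integration and thinning to 2000 UMIs. A block for the Cell Ranger version and leaving out shared barcodes were added after the data were seen. Libraries with the same replicate number deviated together in every pair (r over 0.1) only in oligodendrocyte-like (0.36, 0.17 and 0.46) and endothelial-like cells (0.20, 0.12 and 0.38), and nothing in the labels ties the numbers to a litter or day.

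The receptors, the partner lists and the markers were chosen with earlier results of these data known. Named were the 6 receptors in every type, the 5 genes closest to each by Pearson's r among genes of at least 10 CPM in a type, of which the text gives some, and partner genes of at least 10 CPM in the controls that were called or whose role stands beside a receptor. Exceptions were Reln, A2m, Rbp4, Cubn and Amn, named after their values were seen. Sorl1 was not called. It is a receptor of the same family, and it too was named with its values known. Shares of cells have exact (Clopper-Pearson) 95% intervals, and a count of 0 allows up to 3 counts of the total.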

Additional observations from a re-analysis of the deposited data

Results flagged for a closer look

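Vldlr was flagged because all cKO libraries lay above all controls in neuroblast-like cells, with means of 48.2 ± 5.16 CPM in the cKO and 40.1 ± 0.744 CPM in the control libraries (SD, n = 3), and below all controls in OPC-like cells, with means of 179 ± 2.30 and 204 ± 9.74 CPM. The difference between the cell types was not tested, and neither difference passed the threshold in its own type. Groups did not overlap for 12.9% of all genes in neuroblast-like and 12.1% in OPC-like cells. These means are of CPM without TMM scaling, and the fitted difference in OPC-like cells, given above, was small.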

How the results depend on the processing

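Of 151 alternative values, 121 stayed the same by the rule for their kind. By these rules a test was the same where it kept its direction and its side of the threshold. A count was the same where it stayed within 1.5 times the main count. Lrp2 in NSC-like cells was the same where it kept its direction and stayed within 0.841 of its main log2 fold change. That limit was the larger SD of log2 CPM over replicates, and 14 of 17 alternatives met it. The Lrp2 log2 fold change in NSC-like cells, 3.42, was 2.02 with marker gates, 0.59 without integration and 2.03 without cells bearing 2 or more ependymal markers, and 3.12 to 3.79 with 1 library left out. With the replicate number as a block it was 3.34, with a Cell Ranger version block 3.41 and without shared barcodes 3.395. The marker gates and the clusters without integration moved cells between the NSC-like and astrocyte-like types. Without integration these types also took in cells from outside them. In cKO 3 the astrocyte-like cells then numbered 1830, against 666 NSC-like and 282 astrocyte-like cells of the main clusters. Of the receptors none was called outside NSC-like cells, nor with the replicate block (0 calls), but 1 was called without the filter on low counts (Lrp2 in ependymal-like cells), 1 with marker gates (Lrp2 in astrocyte-like cells), 3 without integration (Lrp1b, Lrp2 and Lrp8 in astrocyte-like cells) and 0 to 2 with 1 library left out. The astrocyte-like Lrp2 calls took in cells that the main clusters name NSC-like, whose values chose the gene, so they describe that choice and are no test. The Lrp1b and Lrp8 calls without integration came from the same astrocyte-like cluster, in which unlike cells of the libraries were compared. The 2 came without cKO 1, namely Lrp8 in ependymal-like and Lrp1b in astrocyte-like cells. Calls over all genes also rose in these settings. Ependymal-like cells had 21 of 13890 genes called, 375 of 21318 without the filter and 386 of 13479 without cKO 1. Astrocyte-like cells had 156 of 12082 called, 401 of 13531 with marker gates, 1125 of 13537 without integration and 528 of 12246 without cKO 1. The partner calls, 2, numbered 5 with DESeq2, 14 without the filter, 17 with the replicate block, 0 at 5% mitochondrial counts, 6 with marker gates, 7 without integration and 0 to 10 with 1 library left out, of which 10 came without cKO 1 and 0 without control 2, cKO 2 or cKO 3. Calls over all genes differed between these settings too. With the replicate block 496 of 12082 genes were called in astrocyte-like and 250 of 13890 in ependymal-like cells. With DESeq2 these were 196 and 110. The replicate numbers tie no samples by their labels, and the block gave an adjusted p of 0.0856 for Lrp2 and 0.0908 for Lrp8 in ependymal-like cells. Lrp1 in TAP-like cells, 0.33, reversed to -0.023 with marker gates. The causes were not tested. Depth limits the shares of cells with a UMI: thinning to 2000 UMIs took Lrp1 in microglia-like cells from 64.4 to 44.6%, Lrp1b in neuron-like cells from 75.6 to 41.2% and Lrp4 in NSC-like cells from 41.8 to 15.4%.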

Other observations

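An unnamed cluster of 3234 cells, in which hemoglobin genes led and astrocyte markers were also raised, had few UMIs per cell (median 1208). Lrp2 stood there at 0, 0 and 1.41 CPM in the controls, from 0, 0 and 2 UMIs, at 2.82, 16.2 and 11.4 CPM in cKO 1, 2 and 3, from 1, 7 and 20 UMIs, while the DKO library had 7.15 CPM. As in the NSC-like cells, cKO 2 and cKO 3 were the highest, but the DKO library stood above cKO 1. With no type assigned, the values enter no comparison made with the main clusters. The marker gates and the clusters without integration named cells anew, and which types these cells took there was not tested.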
